A study of Mus musculus with 6 samples.

Results

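The stretch of mouse chromosome 19 that holds Jak2, Cd274 and Pdcd1lg2 was examined for open chromatin in colon cancer organoids. It was defined as the window from 29300000 to 29560000 of the mm9 build, and all peaks of the deposited table that overlap it were taken, whatever their signal. These were 14 of 43020 peaks. The accessibility of each was measured by ATAC-seq, in which the transposase Tn5 cuts and tags open DNA, so that a more open region gives more reads. The 3 libraries of primary tumour organoids came from organoids of genotype AKP that had been placed by colonoscopy in the colon of immunocompetent C57Bl6 mice, then regrown from the resulting tumours and passaged until the cultures held cancer cells alone. The 3 libraries of naive organoids came from the same AKP genotype without a recipient mouse. The labels name no allele, do not say whether the replicates came from separate cultures or mice, and give no age, so p-values measure the spread between these libraries, which may be technical. Life in the mouse, regrowth and passaging cannot be told apart. A library averages many cells, so more cells with an open site and wider opening in each cell cannot be told apart either.

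The 3 genes belong to one branch of immune control. Jak2 encodes a tyrosine kinase bound to cytokine receptors, among them the interferon-γ receptor, and it starts the phosphorylation of STAT proteins that enter the nucleus. Cd274 encodes PD-L1, a surface ligand that restrains T cells through the receptor PD-1, and it is a well-known target of interferon-γ signalling in epithelial and tumour cells. Pdcd1lg2 encodes PD-L2, the other ligand of PD-1, best known from dendritic cells and macrophages. In RefSeq's GRCm38.p6 annotation the protein-coding genes follow one another as Rcl1, Jak2, Insl6, Rln1, Plgrkt, Cd274, Pdcd1lg2 and Ric1. Insl6 and Rln1 encode hormones of the relaxin family, and Plgrkt encodes a plasminogen receptor. That build differs from the build of the peaks, so it served for names, order and sequence and no peak was assigned to a gene through it. For Cd274 an approximate mm9 interval from 29442000 to 29462500 was used. Peaks are named below by the distance of their centre from its start, negative on the Jak2 side. An annotation in mm9 was not used here, so markers of colon epithelium and of other cell types, and the other genes of the interferon pathway, could not be matched to peaks.

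The promoters of the 3 genes differ in base composition, shown here because a peak lies at the start of the Cd274 interval. Each sequence is the 250 bases before the annotated start in RefSeq GRCm38.p6, plus strand, with CG dinucleotides in capitals. They come from chr19:29367188-29367437 for Cd274, chr19:29410669-29410918 for Pdcd1lg2 and chr19:29251553-29251802 for Jak2. Which mm9 peak, if any, holds each of them was not determined.
Cd274: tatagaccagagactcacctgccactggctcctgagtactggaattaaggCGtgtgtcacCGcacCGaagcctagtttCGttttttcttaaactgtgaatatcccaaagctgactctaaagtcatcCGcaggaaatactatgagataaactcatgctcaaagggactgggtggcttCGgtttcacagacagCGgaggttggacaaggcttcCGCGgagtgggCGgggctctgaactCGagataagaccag
Pdcd1lg2: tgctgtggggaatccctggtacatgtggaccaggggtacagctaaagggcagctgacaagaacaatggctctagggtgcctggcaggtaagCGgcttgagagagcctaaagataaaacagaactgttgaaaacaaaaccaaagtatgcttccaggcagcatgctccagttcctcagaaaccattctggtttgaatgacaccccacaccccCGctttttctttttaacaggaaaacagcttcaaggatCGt
Jak2: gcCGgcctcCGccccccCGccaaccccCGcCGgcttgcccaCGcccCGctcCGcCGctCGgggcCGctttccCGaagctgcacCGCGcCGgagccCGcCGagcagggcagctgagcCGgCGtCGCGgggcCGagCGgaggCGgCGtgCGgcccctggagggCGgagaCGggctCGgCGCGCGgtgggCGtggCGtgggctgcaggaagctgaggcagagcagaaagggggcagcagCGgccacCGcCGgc
The Cd274 sequence has 11 CG dinucleotides and a GC content of 50.4%. Pdcd1lg2 has 3 and 48.4%. Jak2 has 37 and 80.8%, at percentile 98.1 for CG number among 32851 promoters of the same length, whose median is 6. On both strands, the interferon-γ activated site TTCNNNGAA, the AP-1 site TGANTCA and the TATA box TATAAA had no match in any of the 3. Among all 32851 promoters these letters occur in 7.02%, 6.75% and 12.4%. The interferon response pattern GAAANNGAA matched once, on the minus strand of the Cd274 sequence from base 175 to base 183, and occurs in 7.13% of promoters. With a further A at its end it had no match in the 3 and occurs in 2.98%. The core letters of SOX factors, ACAAT, were searched because the series concerns SOX17. They matched once, from base 62 to base 66 of the Pdcd1lg2 sequence, and occur in 27.7% of promoters.

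Primary tumour replicate 1 stood above the other libraries in the median of the region. In CPM, which are counts relative to the scaled library total, its peaks in the window summed to 352, against 243 and 251 CPM in the other primary tumour replicates and 239, 237 and 281 CPM in naive replicates 1, 2 and 3. Relative to the naive mean, its median log2 ratio was 0.43 over the 10 tested peaks of the window and 0.00 over all tested peaks. It was 0.24 over 1186 tested peaks of chromosome 19. Over 202 tested peaks of the fixed 10 Mb segment that holds the window, without the window itself, it was 0.33. The window lies near the upper end of that segment, so most of the segment is on the Jak2 side. The other 5 libraries lay between -0.06 and 0.09 in the window. The total count in peaks ran from 1185356 in naive replicate 1 to 5987545 in naive replicate 2. The window held 1233, 460 and 529 reads in primary tumour organoids and 278, 1290 and 657 in naive organoids.

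**Figure D1:**
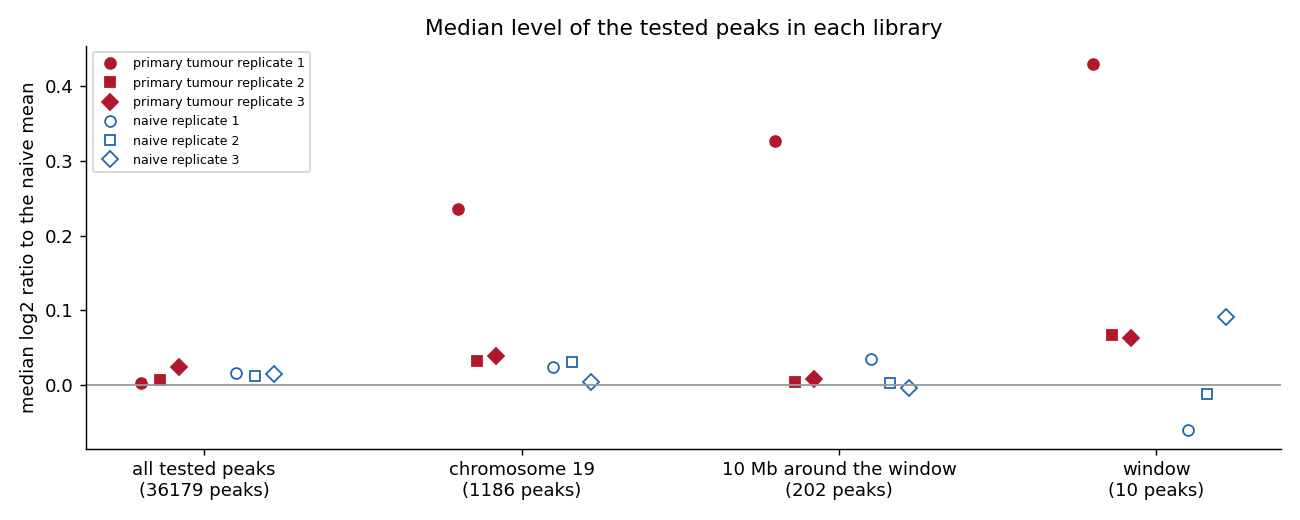
Median over tested peaks of the log2 ratio of each library to the naive mean, with primary tumour organoids (filled) left of naive organoids (open). The sets are all tested peaks, chromosome 19, a 10 Mb segment and the window. The segment, labelled as around the window, is a fixed one with the window near its upper end. Primary tumour replicate 1 is at 0.00 over all peaks and at 0.43 in the window, while the other libraries stay between -0.06 and 0.09.

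Few differences were detected in the window. Of the 14 peaks, 10 held enough reads to be tested, and 1 of them, 126 kb before the Cd274 interval, was more accessible in primary tumour organoids. None was less accessible. The peak at the start of Cd274 lay higher in each primary tumour library than in each naive library, but the difference did not pass the test. Across the genome the same test called 8.00% of 36179 tested peaks higher and 6.40% lower, so 1 and 0 of 10 are near that background. The shares were 8.52% and 3.79% on chromosome 19, and 9.90% and 4.95% in the fixed 10 Mb segment without the window. At an unadjusted p under 0.05, edgeR also had 1 peak higher and 0 lower, and DESeq2, which tested 12 of the 14, called 1 higher and 0 lower and had the same numbers at an unadjusted p under 0.05. The median log2 fold change (primary tumour minus naive) was 0.17 over the 10 tested peaks and -0.01 over all tested peaks. With an offset per library and chromosome the median of the 10 was 0.07. Without the offset the fold change was above 0 in 6 of the 10 and in 49.7% of all tested peaks.

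**Figure D2:**
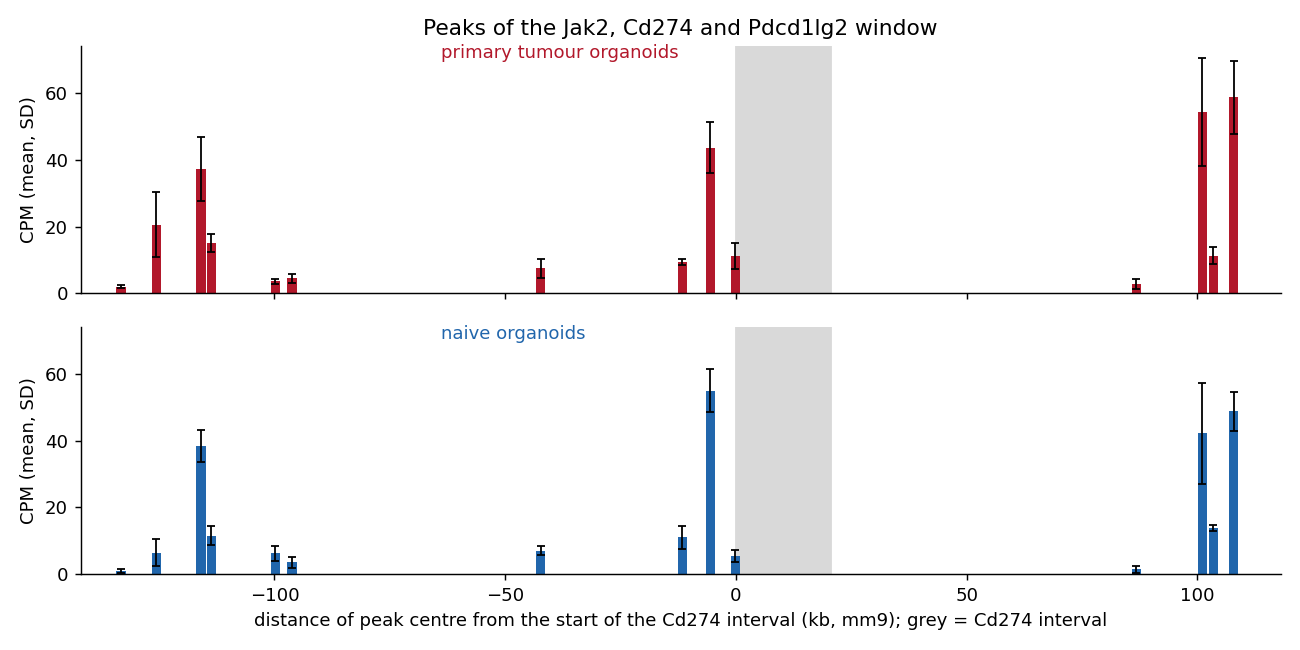
Mean accessibility in CPM (bars) with its SD over 3 libraries for each of the 14 peaks, by distance in kb of the peak centre from the start of the Cd274 interval (grey), in primary tumour organoids (top) and naive organoids (bottom). The tallest peaks stand in the same places in both groups, and the peak at -126 kb is taller in primary tumour organoids, at 20.6 against 6.44 CPM.

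The peaks of the deposited table lay in groups, with long stretches between them that held no row. They covered 10.8 kb, or 4.16% of the 260 kb window. Their widths ran from 295 to 1818 bp with a median of 602.5 bp, against 746 bp over the whole table. Genome tiles of 260 kb that held any peak had a median of 4 peaks. There were 6 peaks between -133 and -96 kb, 3 between -42 and -6 kb, 1 at the start of the Cd274 interval and 4 between 87 and 108 kb. The longest gap, 86.4 kb, ran from the Cd274 start peak past the rest of the interval. The authors' peak numbers ran from 49038 to 49057, of which 6 have no row in the table.

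Levels per kb of peak width allow the peaks to be set against one another. The highest were the peaks at 108 kb, with 69.7 ± 12.9 CPM per kb in primary tumour organoids and 57.9 ± 6.95 in naive organoids, and at -6 kb, with 56.6 ± 9.95 and 71.3 ± 8.36 (SD, n = 3 each). The single libraries of these 2 peaks overlapped in primary tumour organoids and not in naive organoids. The peak at 103 kb followed with 38.3 ± 9.03 CPM per kb in primary tumour organoids and 46.7 ± 2.85 in naive organoids, and that at -116 kb came next with 30.4 ± 7.82 and 31.4 ± 3.96. The peak at 101 kb had 29.9 ± 8.96 and 23.2 ± 8.31 CPM per kb, and in primary tumour organoids the next peaks above and below it, at -116 and -126 kb, lay within its SD. The Cd274 start peak had 22.2 ± 7.76 and 10.9 ± 3.83 CPM per kb. In primary tumour organoids it stood level with the peaks at -126 kb (23.1 ± 10.9) and -114 kb (22.3 ± 4.03). In naive organoids it stood between the peaks at -42 kb (13.3 ± 2.35) and -96 kb (9.18 ± 4.20), which lay within its SD. The lowest level in both groups was at -133 kb, with 4.79 ± 1.19 and 2.33 ± 1.48 CPM per kb. The peaks at -12 kb, with 5.90 ± 0.554 and 6.91 ± 2.13, and at 87 kb, with 6.34 ± 3.28 and 3.17 ± 2.20, were the next lowest, in that order in primary tumour organoids and in the other order in naive organoids.

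At the start of Cd274 the peak spanned 29441641 to 29442144, so that its upper end reached into the interval of the gene. It held 33, 16 and 33 reads in primary tumour replicates 1, 2 and 3, and 4, 31 and 17 reads in naive replicates 1, 2 and 3. After scaling this gave 9.41, 8.47 and 15.7 CPM in primary tumour organoids and 3.43, 5.70 and 7.26 CPM in naive organoids. The groups did not overlap, with primary tumour replicate 3 the highest and naive replicate 1 the lowest. Such a separation upwards was found at 2 of the 10 tested peaks of the window and at 15.5% of all tested peaks. On the log2 scale the difference was 0.97 with an SE of 0.50, and adjusted p = 0.208 (edgeR quasi-likelihood test, Benjamini-Hochberg adjustment). The 95% interval of the fold ran from 0.968 to 3.98, which takes in both equal levels and a rise of more than 2-fold. With 1 library left out the log2 fold change ran from 0.67 without primary tumour replicate 3 to 1.17 without naive replicate 3. The adjusted p were 0.541 and 0.22 (edgeR). An offset per library and chromosome gave a log2 fold change of 0.89 (adjusted p = 0.253, edgeR). No other peak of the deposited table overlapped the Cd274 interval.

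**Figure D3:**
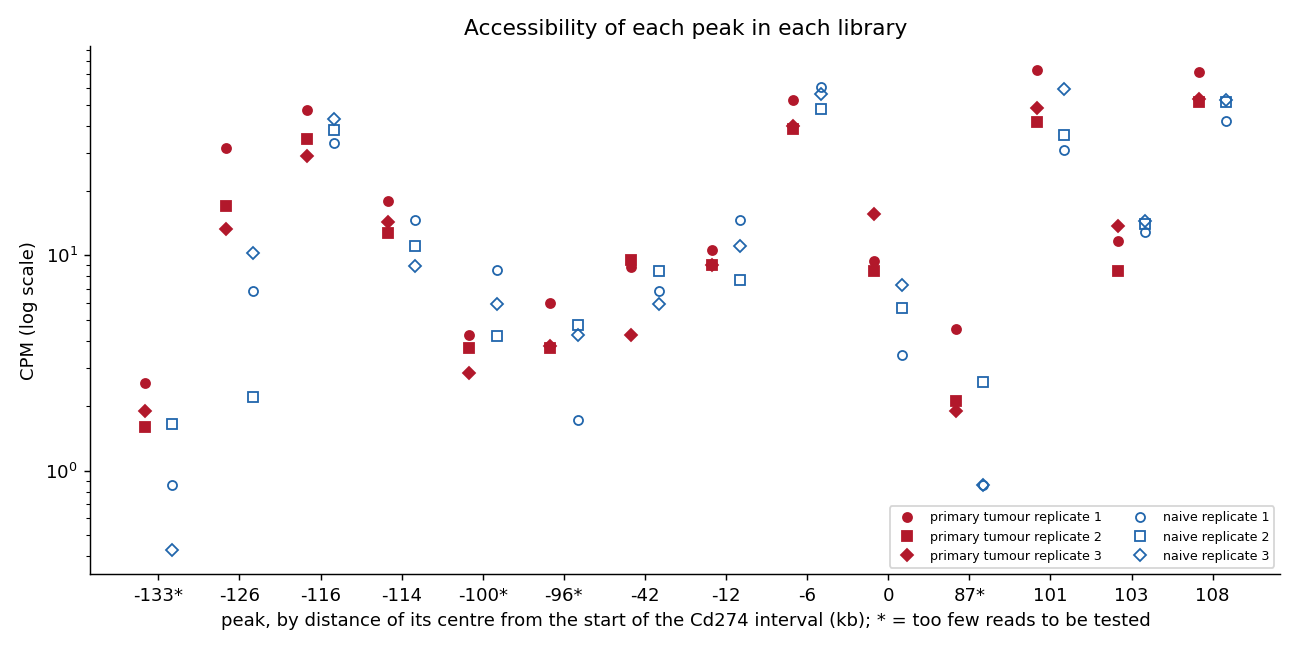
Accessibility of each of the 14 peaks in each library, in CPM on a log scale, with primary tumour organoids (filled) left of naive organoids (open). The groups are separated at -126 kb and at the Cd274 start (0 kb) and overlap at the other 12 peaks.

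On the Jak2 side of Cd274, the called peak lay from 29315946 to 29316838. Where it lies relative to the start of Jak2 was not determined. Its counts were 111, 32 and 28 reads in primary tumour replicates 1, 2 and 3 and 8, 12 and 24 reads in naive replicates 1, 2 and 3, which scaled to 31.7, 16.9 and 13.3 CPM against 6.86, 2.21 and 10.3 CPM. No naive library reached any of the primary tumour libraries, with primary tumour replicate 1 far above the rest and naive replicate 2 the lowest. The means were 20.6 ± 9.73 and 6.44 ± 4.04 CPM (SD, n = 3 each). In edgeR's fit this was 3.48-fold, with a 95% interval from 1.69 to 7.17 (log2 1.80 with SE 0.50 and adjusted p = 0.0180). The call was lost when either of 2 libraries was left out. Leaving out primary tumour replicate 1 gave a log2 fold change of 1.34 (adjusted p = 0.0871), and without naive replicate 2 it was 1.24 (adjusted p = 0.151). Without naive replicate 3 it was 2.47 (adjusted p = 0.00855). An offset per library and chromosome gave 1.68 (adjusted p = 0.0212, edgeR); it takes out the shift of primary tumour replicate 1 over chromosome 19 as a whole, 0.24, and not all of its 0.43 in the window. An offset per library and 10 Mb segment gave 1.69 (adjusted p = 0.0181, edgeR). The nearest tested peak beyond the window on this side, from 29290444 to 29291054, had 48.5, 36.0 and 17.6 CPM in primary tumour organoids and 13.7, 18.4 and 23.9 CPM in naive organoids, and its groups overlapped (log2 fold change 0.85 with SE 0.34 and adjusted p = 0.0955).

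The strongest peak of this Jak2-side group, from 29325488 to 29326709, did not follow it. It had 47.6, 34.9 and 28.9 CPM in primary tumour organoids and 33.5, 38.4 and 43.1 CPM in naive organoids. The lowest and the highest value both belonged to primary tumour organoids, and the log2 fold change was -0.04 with an SE of 0.26 and adjusted p = 0.947 (edgeR), with a 95% interval of the fold from 0.670 to 1.41. Beside it, the peak from 29327956 to 29328628 had 18.0, 12.7 and 14.2 CPM against 14.6, 11.0 and 8.97 CPM in naive organoids (log2 fold change 0.42 with SE 0.40 and adjusted p = 0.555). These groups overlapped as well.

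Between -42 and -6 kb no tested peak passed the threshold. The narrow peak from 29399447 to 29399980 had 8.84, 9.53 and 4.27 CPM in primary tumour organoids and 6.86, 8.45 and 5.98 CPM in naive organoids. The widest peak on this side, from 29429589 to 29431202, had 10.6, 9.00 and 9.01 CPM and 14.6, 7.72 and 11.1 CPM. Their log2 fold changes were 0.07 and -0.16, with adjusted p = 0.953 and 0.863 (edgeR). The strong peak at -6 kb, from 29436072 to 29436843, had 52.5, 38.6 and 39.8 CPM in primary tumour organoids and 60.9, 48.1 and 56.0 CPM in naive organoids. Its primary tumour mean of 43.7 ± 7.67 CPM was below the naive mean of 55.0 ± 6.44 CPM, yet the groups overlapped and the log2 fold change of -0.31 (SE 0.23) had an adjusted p of 0.433 (edgeR). It is 4798 bp from the Cd274 start peak, whose fold change had the opposite sign. Neither peak passed the threshold, and the difference between them was not tested.

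Beyond Cd274, on the Pdcd1lg2 side, 3 tested peaks lay within a few kb of one another. Where they lie relative to Pdcd1lg2 was not determined. The widest of the window, from 29542129 to 29543947, had 72.7, 41.8 and 48.4 CPM in primary tumour organoids and 30.9, 36.4 and 59.4 CPM in naive organoids (log2 fold change 0.36 with SE 0.27 and adjusted p = 0.419, edgeR). Primary tumour replicate 1 and naive replicate 3 stood above the other libraries of their group. The peak from 29549421 to 29550264 had 71.3, 51.9 and 53.1 CPM against 42.0, 51.8 and 52.5 CPM (log2 fold change 0.26 with SE 0.23 and adjusted p = 0.509). Between them the narrowest peak, from 29545305 to 29545600, had 11.7, 8.47 and 13.8 CPM and 12.9, 14.0 and 14.5 CPM (log2 fold change -0.29 with SE 0.40 and adjusted p = 0.712). All 3 had overlapping groups. The nearest tested peak past the window, from 29596332 to 29598582, had 36.9 ± 4.05 CPM in primary tumour organoids and 40.9 ± 19.3 CPM in naive organoids (log2 fold change -0.18, adjusted p = 0.748).

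**Figure D4:**
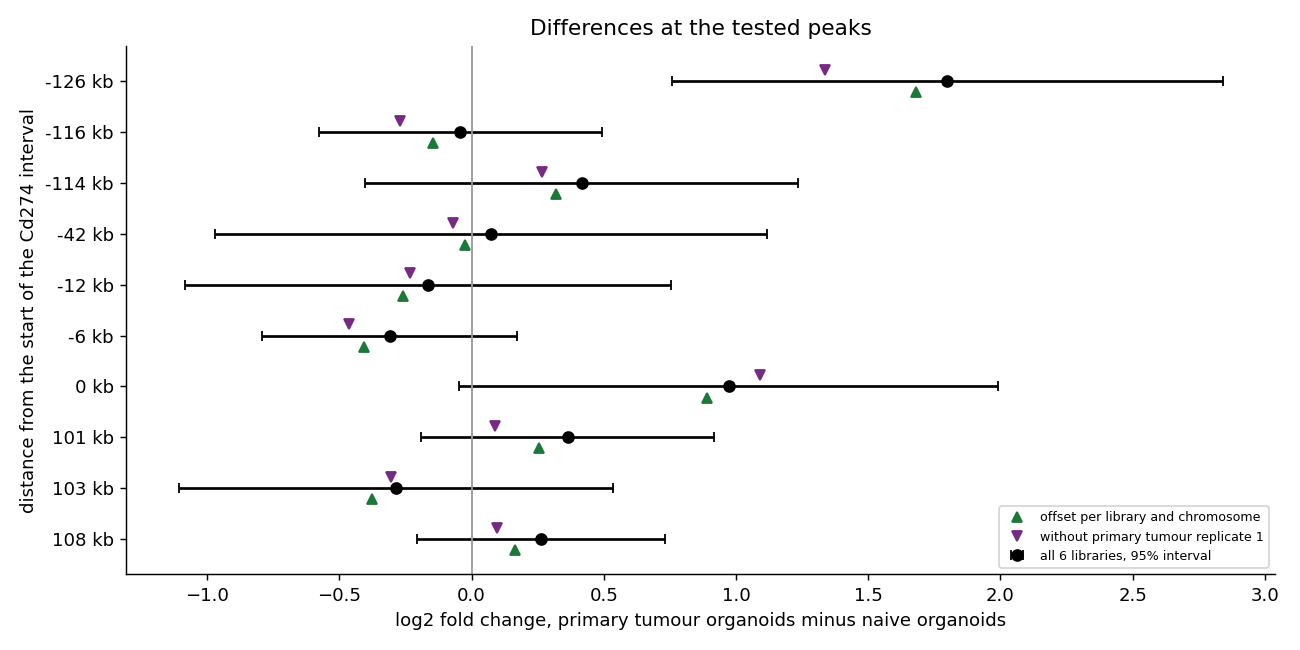
Log2 fold change, primary tumour organoids minus naive organoids, with its 95% interval at each of the 10 tested peaks, and the same with an offset per library and chromosome (upward triangles) or without primary tumour replicate 1 (downward triangles). The interval lies above 0 at -126 kb alone and spans 0 at the other 9.

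The precision differed among the 9 tested peaks without a call. At 4 of them, at -116, -6, 101 and 108 kb, the 95% interval from all 6 libraries stayed within a 2-fold difference either way. The estimate at 101 kb moved most of these 4 when 1 library was left out, with a log2 fold change of 0.09 (SE 0.289) without primary tumour replicate 1 and 0.67 (SE 0.305) without naive replicate 3. With a library left out the estimate plus or minus 2 SE could pass a 2-fold difference at 101 kb, as without naive replicate 3, and at -6 kb, as without primary tumour replicate 1 (log2 fold change -0.46 with SE 0.277). At the other 5, the Cd274 start peak among them, it reached beyond a 2-fold difference. The 4 peaks left untested had the fewest reads. The peak from 29308558 to 29308979 held 9, 3 and 4 reads in primary tumour organoids and 1, 9 and 1 in naive organoids, and that from 29528559 to 29529010 held 16, 4 and 4 against 1, 14 and 2. The peak from 29341965 to 29342362 had 3.61 ± 0.721 CPM in primary tumour organoids and 6.26 ± 2.19 CPM in naive organoids, and that from 29345581 to 29345972 had 4.50 ± 1.29 and 3.59 ± 1.64 CPM. All 4 had overlapping groups. With no filter on reads their log2 fold changes were 0.85, 0.82, -0.70 and 0.23 in that order, with adjusted p between 0.532 and 0.876 (edgeR).

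The peaks outside the window whose levels ran most like the Cd274 start peak were on other chromosomes. Likeness was Pearson's r of log2(CPM + 1) over the 6 libraries, given as a description, since libraries of a group share their origin and 75 of 36169 peaks exceeded 0.95. The 5 most similar began at 41404864 on chromosome 12 (r = 0.987), at 120201453 on chromosome 10 (0.987), at 133050396 on chromosome 4 (0.984), at 68319575 on chromosome 18 (0.983) and at 93390423 on chromosome 5 (0.981). Their Spearman rho with it was 1 on chromosomes 12, 18 and 5 and 0.943 on chromosomes 10 and 4. Each was lower in all naive libraries than in any primary tumour library. They were picked for likeness to a peak whose groups did not overlap, so this separation and their test results partly reflect that choice. The chromosome 5 peak passed the test, with 66.9 CPM in primary tumour replicate 3 and 22.3 CPM in naive replicate 1 as its extremes (log2 fold change 0.76, adjusted p = 0.0476, edgeR), and the other 4 had adjusted p between 0.0615 and 0.327.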

How the data were processed

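ATAC-seq was made from 50000 cells per library, treated with transposase at 37 °C for 30 min, per the labels' protocols. The authors deposited 1 table of raw read counts per peak, with no normalization, over a peak set shared by all 6 libraries. Per the submitters' processing notes the build was mm9 and the tools included MACS2, Bowtie, SAMtools, bedtools and Picard, with no versions. The sources used here do not say how duplicates were treated, which would inflate counts if kept, or whether read ends were moved for the transposase offset. They do not say whether starts count from 0 or 1 either, and positions are printed as deposited.

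The counts went into edgeR 4.0.16 (R 4.3.3). Peaks passing filterByExpr were scaled by TMM, and groups were compared by a 2-sided robust quasi-likelihood F test without covariates. A call needed an adjusted p under 0.05 (Benjamini-Hochberg, all tested peaks). Fold changes are primary tumour minus naive. SE and 95% intervals come from the fold change and F. CPM is relative to the TMM-scaled total of tested peaks. Alternatives were other scalings, filters, DESeq2 1.42.0, offsets per library and chromosome or 10 Mb segment or by abundance (loess), a replicate block, a test against a fold of 2, and each library left out. The test was checked on simulated data, which held no regional shift in a library such as that of primary tumour replicate 1. All peaks overlapping the window were named, together with the nearest tested peak on either side and the 5 peaks most like the Cd274 start peak. The window, genes and tests were chosen with earlier results of these data known.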

Additional observations from a re-analysis of the deposited data

How the results depend on the processing

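The peak at -126 kb was called higher with every other scaling, filter and offset tried, by DESeq2 and with the replicate block (log2 fold change 1.68 to 1.82). Testing for more than a 2-fold difference, a stricter question, left 0 calls in the window, with 509 higher and 208 lower over all tested peaks. Leaving out 1 library gave 0 to 1 higher and 0 lower calls in the window, and 1366 to 3033 higher and 849 to 2407 lower over all peaks. The window lost its call without primary tumour replicate 1 and without naive replicate 2, each with 1 or more peaks at an unadjusted p under 0.05 (2 and 1, edgeR). The lowest counts over all peaks came without naive replicate 2, and the cause was not tested. No other tested peak of the window was called in any alternative. Signs near 0 changed. At -116 kb the log2 fold change was -0.04, but 0.011 with total-count scaling, 0.033 with trended offsets and -0.27 to 0.12 with 1 library left out. At -42 kb it was 0.07, but -0.14 with trended offsets, -0.00999 with window offsets, -0.025 with chromosome offsets and -0.11 to 0.36 with 1 library left out. At -12 kb leaving out 1 library gave -0.40 to 0.037. The other 145 of 159 values kept direction and side of the threshold, and those without a change of sign that lost the call were the 3 at -126 kb. Summed CPM moved by less than 1 SD under total-count scaling or with tested peaks alone. Libraries with the same number deviated from their group means with correlations of -0.236, -0.107 and 0.00593, so the numbers were not taken to pair libraries. The replicate block called 1972 higher and 1567 lower, and at -126 kb gave 1.79 (adjusted p = 0.0393). At 5 of the 9 peaks without a call the interval passed a 2-fold difference; counting error and the spread between libraries were not separated there.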
